A study of Mus musculus with 9 samples.

Results

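Fatty acid oxidation genes and their PPAR regulators were followed in mouse macrophages derived in culture from bone marrow precursors. The set was chosen by gene symbol and holds 32 genes of the 46095 symbols in the deposited count table. It comprises 4 acyl-CoA synthetases, 4 genes of the carnitine shuttle, 4 acyl-CoA dehydrogenases, 3 genes of the electron transfer flavoprotein route, 4 genes of the later steps of the cycle, 3 enzymes that handle double bonds, 5 peroxisomal genes, and the 3 PPAR genes with 2 PGC-1 coactivators. The macrophages came from wild-type Balb/c mice, 6 weeks old according to the labels, and formed 3 groups of 3 libraries: untreated control, LPS, and LPS plus BHB. LPS commonly stands for lipopolysaccharide, a bacterial product sensed by Toll-like receptor 4, and BHB for beta-hydroxybutyrate, the main circulating ketone body, but the labels spell out neither and give no dose or time. No group received BHB alone, so an effect of BHB can be read only on top of LPS.

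In beta-oxidation a fatty acid is first joined to coenzyme A by an acyl-CoA synthetase. Long chains are passed into the mitochondrion as carnitine esters, a step controlled by carnitine palmitoyltransferase 1, and are then shortened in repeated rounds of dehydrogenation, hydration, dehydrogenation and thiolysis, with electrons leaving through the electron transfer flavoprotein. Very long and branched chains are shortened first in peroxisomes, and acyl-CoA enters these through ABCD transporters. The nuclear receptors PPAR alpha, delta and gamma, paired with RXR and helped by PGC-1 coactivators, drive many of these genes. In macrophages PPAR gamma is known for lipid handling and alternative activation, and fatty acid oxidation is commonly associated with the alternatively activated state.

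Library totals ran from 29633411 to 32798920 counts, and the 32 genes together took 0.162% to 0.220% of the counts of a library. Levels are given as CPM, the counts scaled to the TMM-adjusted library total. Of the 32 genes, 30 passed the filter on low counts and were tested. Ppara, with 5 counts, and Ppargc1a, with 8 counts over the 9 libraries, were not. The labels do not state that replicates are separate cultures or animals, so a p-value reflects just the spread among these samples, which may be technical. Control replicates 2 and 3 held low counts of genes that LPS induces (for Acod1, 24, 1739 and 1808 counts in replicates 1 to 3). Without these libraries 1 control library is left, which the fit assumes to vary like the other groups. The log2 fold changes against control then moved by a median of 0.014 over all genes, with LPS and with LPS plus BHB. All 12 macrophage markers had counts, with summed levels of 20504 to 23943 CPM in control, 15858 to 17130 CPM under LPS, and 21707 to 22007 CPM once BHB was added, but they did not move together. In group means (control, LPS, LPS plus BHB) Lyz2 had 14575, 5061 and 5883 CPM, Csf1r 2509, 629 and 1049 CPM, Mrc1 388, 175 and 87.1 CPM, Fcgr1 161, 1.78 and 3.68 CPM and Cx3cr1 9.73, 0.126 and 0.521 CPM. Cybb had 1001, 5728 and 5933 CPM, Cd14 530, 1651 and 5765 CPM and Adgre1 862, 1315 and 1365 CPM. Adipocytes also express several of these genes, and their 8 markers summed to 0.0330 to 0.247 CPM over all libraries, with Lep at 0 counts. Lymphocyte markers summed to at most 0.350 CPM, with 7 of 8 detected and Klrb1c at 0. All 8 dendritic cell markers had counts and summed to 465 to 615, 433 to 518 and 345 to 454 CPM in control, LPS and LPS plus BHB. Most of this was Itgax, with group means of 523, 446 and 369 CPM, while Zbtb46 had 0.869, 20.3 and 13.6 CPM and Ccr7 0.781, 2.32 and 3.01 CPM. The 9 neutrophil and precursor markers summed to 18.1 to 19.1, 3.71 to 6.00 and 5.49 to 7.46 CPM. Most of the control sum was Mmp8, with group means of 13.98, 1.99 and 1.54 CPM. Only S100a8 (1.59, 1.78 and 3.38 CPM) and Camp (0.0836, 0.187 and 0.322 CPM) were not lower with LPS in the mean. The 8 stromal markers summed to 6.87 to 14.9, 99.3 to 109 and 131 to 160 CPM, of which Pdgfrb alone had group means of 3.54, 98.5 and 138 CPM. The part of these marker changes in the results below was not tested. In these bulk samples fewer cells of a type and less RNA per cell cannot be told apart.

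LPS lowered most of the pathway. Of the 30 tested genes 20 fell and 5 rose against control, beside 41.4% and 38.4% of all 14026 tested genes called lower and higher (79.8% either way). With a change of at least 2-fold, 12 members fell and 2 rose, beside 26.3% and 18.7% of all genes. The median log2 fold change was -0.55 for the members and -0.06 for all genes. The largest falls were in Abcd2, a peroxisomal transporter gene, at 215-fold, in Pparg at 12.4-fold and in the thiolase gene Acaa2 at 8.21-fold. Of the 4 synthetase genes 3 rose, with Acsl1 up 10.6-fold. Groups did not overlap for 25 of the 30 members, beside 82.7% of all genes tested. A gene was called at a Benjamini-Hochberg adjusted p under 0.05 in the quasi-likelihood test of edgeR, here and below. When libraries were scaled by their totals alone, without TMM factors, the median of all genes moved by -0.274 (log2), and the calls went from 5390 higher and 5801 lower to 4283 and 7084, with 4 members higher and 23 lower.

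**Figure D1:**
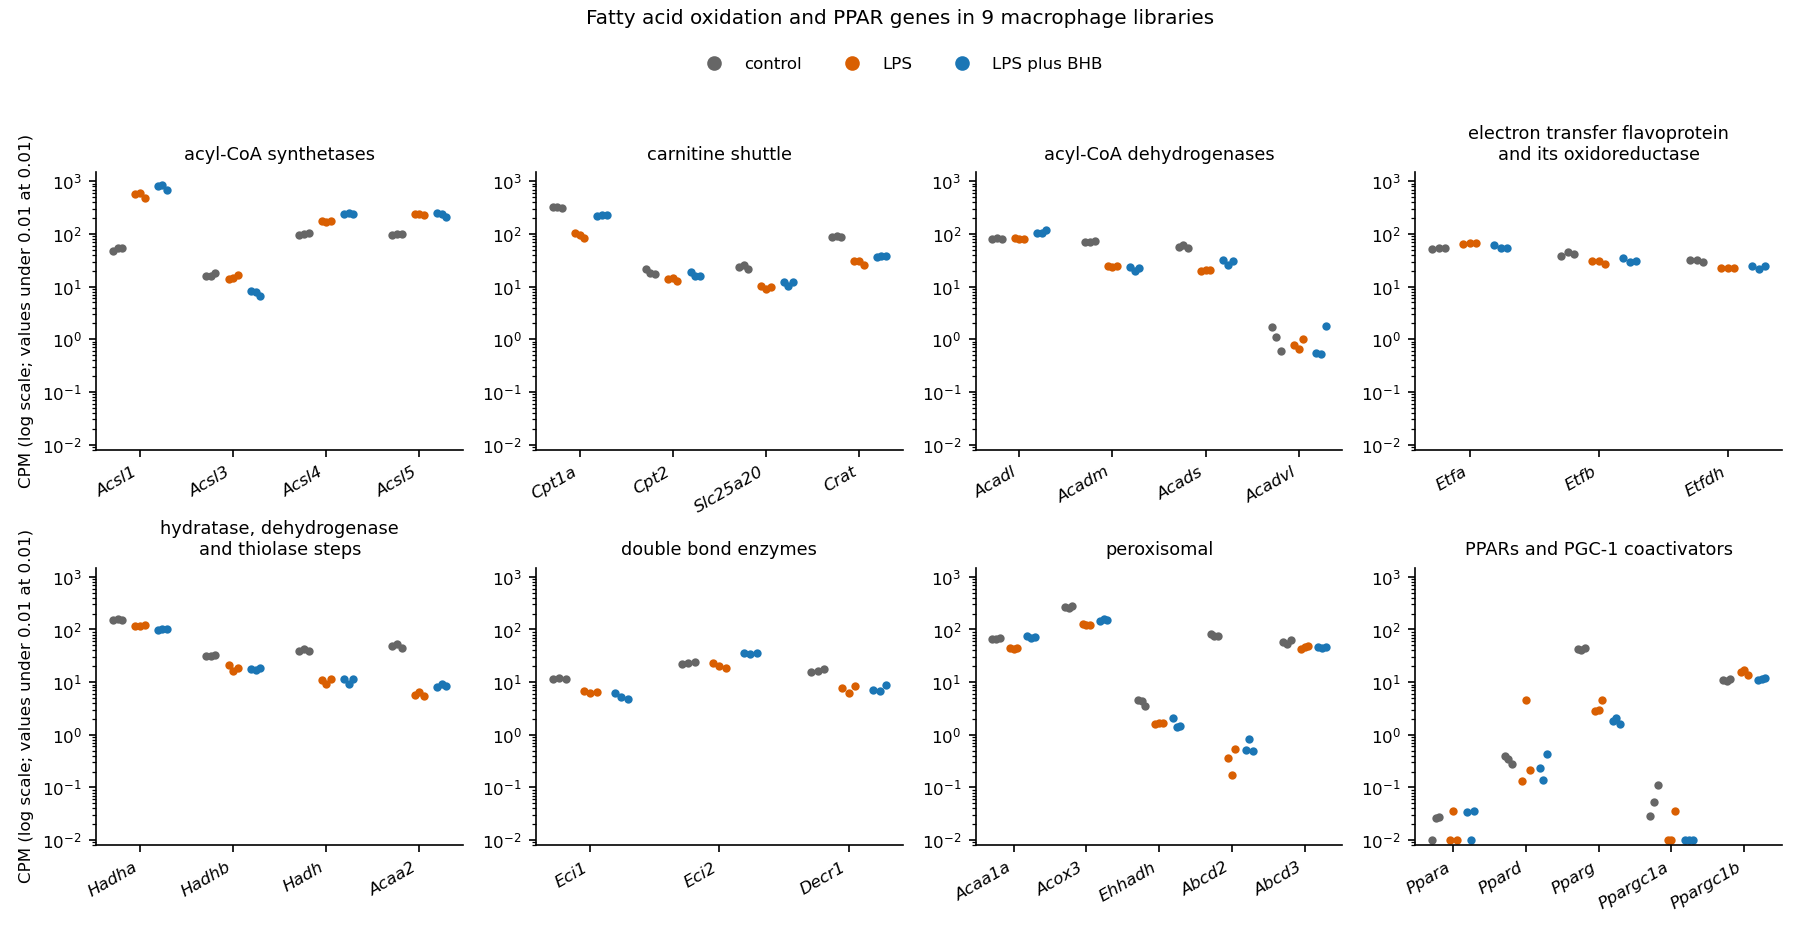
CPM of the 32 genes in each of the 9 libraries, by role, on a log scale (values under 0.01 CPM are drawn at 0.01). Each point is a library. Abcd2 and Pparg fell to low levels with LPS, while Acsl1 rose from 48.1 to 54.2 CPM in control to 477 CPM or more.

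The acyl-CoA synthetases activate fatty acids for every later route, storage as well as oxidation. Acsl1, a long-chain form (chromosome 8, 46471037 to 46536051, plus strand), stood at 48.1, 54.2 and 53.8 CPM in the control libraries, 583, 600 and 477 CPM with LPS, and 813, 837 and 677 CPM with LPS plus BHB. The 3 groups were fully separated, and the rise with LPS was 3.41 on the log2 scale (SE 0.12, adjusted p = 7.16e-09). Acsl5 was at 93.7, 99.4 and 98.5 CPM in control, 243, 243 and 227 CPM with LPS, and 251, 240 and 211 CPM with LPS plus BHB (log2 fold change 1.29 with LPS, SE 0.06, adjusted p = 1.88e-14). Acsl4, which prefers arachidonate, was at 96.9, 99.3 and 103 CPM in control, 178, 172 and 174 CPM with LPS, and 242, 251 and 235 CPM with LPS plus BHB. It rose 1.75-fold with LPS (adjusted p = 3.91e-13). Acsl3, linked to lipid droplet growth, was at 15.7, 16.0 and 17.96 CPM in control, 13.7, 14.8 and 16.3 CPM with LPS, and 8.14, 7.95 and 6.74 CPM with LPS plus BHB. Its control and LPS values overlapped (log2 fold change -0.15, SE 0.10, adjusted p = 0.184). Scaled by library totals alone it was lower with LPS (-0.42, adjusted p = 0.000757). Acsl5 shares 8.31% of its exonic bases with Zdhhc6 on the opposite strand, and whether the counting used strand is not known here.

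All 4 carnitine shuttle genes fell with LPS. Cpt1a (chromosome 19, 3322334 to 3385733, plus strand) encodes the gatekeeper enzyme that forms acylcarnitine at the outer membrane. Its values were 324, 331 and 318 CPM in control, 103, 96.3 and 82.8 CPM with LPS, and 215, 230 and 225 CPM with LPS plus BHB. It dropped 3.45-fold with LPS (log2 fold change -1.79, SE 0.06, adjusted p = 1.26e-15), and the LPS plus BHB libraries lay between the other two groups. Crat, carnitine acetyltransferase, which buffers acetyl groups, went from 88.6, 89.8 and 86.8 CPM to 31.3, 30.4 and 25.6 CPM with LPS and 36.6, 38.2 and 39.0 CPM with LPS plus BHB (log2 fold change with LPS -1.60, SE 0.07, adjusted p = 3.55e-15). Slc25a20, the carnitine-acylcarnitine exchanger of the inner membrane, went from 23.1, 25.5 and 21.8 CPM to 10.5, 8.99 and 9.86 CPM with LPS and 12.04, 10.1 and 12.1 CPM with LPS plus BHB (-1.26, SE 0.10, adjusted p = 2.03e-10). Cpt2, the matrix-side transferase, went from 19.1 ± 2.10 to 13.8 ± 0.999 CPM (SD, n = 3), a log2 fold change of -0.47 (SE 0.10, edgeR adjusted p = 0.000212).

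Cpt1a is the only member that changed at least 2-fold in both LPS against control and LPS plus BHB against LPS, so the 250 bases before its RefSeq start are shown (GRCm38.p6, chr19:3323051-3323300, plus strand). The GENCODE gene model begins upstream of that start, so the stretch lies inside it, and 16 of its bases are exonic in a GENCODE transcript. Capitals mark the only match to AGGTCA, the half-site that PPARs and several other nuclear receptors bind, here read from the opposite strand as TGACCT and beginning 94 bases before the start.

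Cpt1a: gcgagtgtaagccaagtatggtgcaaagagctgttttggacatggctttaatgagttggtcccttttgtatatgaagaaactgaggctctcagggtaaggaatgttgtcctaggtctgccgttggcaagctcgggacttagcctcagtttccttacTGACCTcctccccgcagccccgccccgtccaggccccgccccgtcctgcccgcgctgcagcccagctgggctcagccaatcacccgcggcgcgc

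RefSeq promoter windows, from 250 bases before to 50 after each start, were at hand for 27 of the 32 genes (31 windows) and not for Crat, Acaa2, Decr1, Abcd2 and Ppargc1b. Both strands were searched. A direct repeat of AGGTCA spaced by 1 base, to which PPAR-RXR pairs bind, was in none of the 31 windows and in 0.0396% of all 32851 windows. TNAAGGTCA, bound by estrogen-related receptors, which also act on this pathway, was in none of the 31 and in 1.28% of all. The half-site AGGTCA, which both longer motifs contain, was in 5 of the 31 windows, those of Cpt1a, Acadm, Acadvl and 2 of Pparg, and in 16.3% of all windows. A match or its absence describes these letters in this window and no more.

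The acyl-CoA dehydrogenases, which carry out the first step of each round for different chain lengths, were mixed, with 2 of 4 lower with LPS and 2 not called. Acadm, the medium-chain enzyme, went from 69.5, 70.0 and 72.2 CPM in control to 24.2, 23.2 and 25.2 CPM with LPS and 23.4, 20.1 and 22.9 CPM with LPS plus BHB (log2 fold change with LPS -1.54, SE 0.07, adjusted p = 6.55e-15). Acads, the short-chain enzyme, went from 56.0, 61.5 and 53.4 CPM to 19.9, 20.7 and 20.3 CPM with LPS and 31.9, 25.4 and 30.9 CPM with LPS plus BHB (-1.49, SE 0.08, adjusted p = 3.96e-13). Acadl, the long-chain enzyme, stood at 78.7, 84.4 and 78.8 CPM in control, 83.3, 80.8 and 80.7 CPM with LPS, and 105, 103 and 121 CPM with LPS plus BHB. Its control and LPS values overlapped (log2 fold change 0.02, SE 0.06, adjusted p = 0.790), although by library totals alone it was lower with LPS (-0.26, adjusted p = 0.000440). Acadvl, the very-long-chain enzyme, had 15 to 62 counts per library (0.521 to 1.80 CPM), and the 3 groups overlapped. Of the 20 protein-coding genes next to Acadvl on chromosome 11 (10 on each side), 19 had under 1000 counts over all libraries, and the highest, the translation factor gene Eif5a, had 1313. Among the other members except Ppard, 2 to 14 of the neighbours were that low. Acadvl also shares 42.9% of its exonic bases with Dvl2 on the opposite strand. Its low count therefore cannot be read as low expression.

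Electrons from the dehydrogenases pass to the electron transfer flavoprotein, encoded by Etfa and Etfb, and on to its oxidoreductase, encoded by Etfdh. The subunits went opposite ways with LPS. Etfa rose from 53.9 ± 1.52 to 66.2 ± 0.384 CPM (SD, n = 3), a log2 fold change of 0.30 (SE 0.05, edgeR adjusted p = 4.83e-05), but was at 0.02 (adjusted p = 0.719) when scaled by library totals alone. Etfb fell from 41.6 ± 3.53 to 29.4 ± 2.36 CPM (SD, n = 3; -0.50, SE 0.08, adjusted p = 1.03e-05 by edgeR), and Etfdh from 30.9 ± 1.62 to 22.7 ± 0.228 CPM (-0.45, SE 0.07). Of the 31-base words of their transcripts, 10.9% for Etfa and 49.9% for Etfb also occur in transcripts of other genes, so both are uncertain. The main such genes, Gm15285 for Etfa and Gm45233 for Etfb, have no row in the count table.

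The 4 genes of the hydration, second dehydrogenation and thiolysis steps all fell with LPS, over a wide range of sizes. Acaa2, the mitochondrial thiolase that releases acetyl-CoA, went from 47.6, 54.0 and 43.6 CPM in control to 5.74, 6.47 and 5.48 CPM with LPS and 8.14, 9.03 and 8.29 CPM with LPS plus BHB (log2 fold change with LPS -3.04, SE 0.10, adjusted p = 5.83e-17). Hadh, the short-chain hydroxyacyl-CoA dehydrogenase, went from 38.3, 42.6 and 38.3 CPM to 10.8, 9.20 and 11.5 CPM with LPS and 11.6, 9.38 and 11.5 CPM with LPS plus BHB (-1.92, SE 0.10, adjusted p = 9.63e-14). Hadha and Hadhb encode the subunits of the mitochondrial trifunctional protein, which acts on long chains. Hadha was at 154, 160 and 151 CPM in control, 116, 118 and 122 CPM with LPS and 99.02, 101 and 104 CPM with LPS plus BHB. Its log2 fold change with LPS was -0.38 (SE 0.04, adjusted p = 9.03e-08). Hadhb went from 32.2 ± 0.458 to 18.7 ± 2.39 CPM with LPS (SD, n = 3; -0.79, SE 0.08, adjusted p = 3.17e-08 by edgeR). Whether Hadha and Hadhb differed from each other in this change was not tested.

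Hadha and Hadhb lie head to head on chromosome 5, and only the 85 bases below separate their GENCODE gene models (GRCm38.p6, chr5:30155163-30155247, plus strand, reading towards Hadhb). They are shown because a pair of genes that start this close can be controlled from one stretch of DNA. No half-site lies in them, so no base is in capitals.

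Hadha-Hadhb: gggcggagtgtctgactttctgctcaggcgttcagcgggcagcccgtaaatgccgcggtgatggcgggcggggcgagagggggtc

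Hadhb shares 23.7% of its 31-base words with other transcripts, mostly with Gm13910, which had 326 to 387 counts in the LPS libraries and 701 to 795 in control, so the Hadhb level is uncertain.

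Enzymes that handle double bonds let unsaturated fatty acids enter the cycle. Decr1, the mitochondrial dienoyl-CoA reductase, went from 15.9, 16.2 and 17.5 CPM in control to 7.72, 6.09 and 8.42 CPM with LPS and 7.16, 6.84 and 8.96 CPM with LPS plus BHB (log2 fold change with LPS -1.16, SE 0.13, adjusted p = 3.61e-08). Eci1, a mitochondrial enoyl-CoA isomerase, was at 11.7 CPM in each control library, at 6.66, 6.09 and 6.44 CPM with LPS, and at 6.21, 5.25 and 4.80 CPM with LPS plus BHB (-0.87, SE 0.12, adjusted p = 1.30e-06). Eci2, the isomerase found in mitochondria and peroxisomes, stood apart from these. It was at 21.9, 23.2 and 23.8 CPM in control, 23.3, 19.97 and 18.4 CPM with LPS, and 35.8, 34.5 and 35.1 CPM with LPS plus BHB. The control and LPS values overlapped (-0.16, SE 0.08, adjusted p = 0.0781). It was called lower with LPS by library totals alone (-0.43, adjusted p = 5.49e-05) and without LPS replicate 1 (-0.25, adjusted p = 0.0104). For Eci2, 17.3% of its 31-base words occur in other transcripts, above all in those of Gm15280, so its level is uncertain. The count table holds no row for Gm15280.

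All 5 peroxisomal genes fell with LPS. Abcd2 (chromosome 15, 91145871 to 91191799, minus strand), which encodes a transporter of very long-chain acyl-CoA, was counted 2950, 2776 and 2688 times in control, 11, 5 and 15 times with LPS, and 15, 24 and 14 with LPS plus BHB. In CPM these were 83.1, 74.3 and 74.2, then 0.363, 0.175 and 0.530, then 0.509, 0.834 and 0.494. The fall with LPS was -7.75 on the log2 scale (SE 0.16, adjusted p = 2.37e-20). Abcd3, a second transporter of the same family, went from 58.3 ± 5.48 to 46.2 ± 3.64 CPM (SD, n = 3; -0.34, SE 0.07, adjusted p = 0.000204 by edgeR). Acox3, an oxidase for branched chains, was at 262, 257 and 278 CPM in control, 125, 121 and 124 CPM with LPS, and 146, 155 and 154 CPM with LPS plus BHB (-1.11, SE 0.04, adjusted p = 2.40e-15). Ehhadh, the peroxisomal bifunctional enzyme, was low throughout, at 4.65, 4.31 and 3.53 CPM in control, 1.62, 1.64 and 1.70 CPM with LPS and 2.10, 1.42 and 1.48 CPM with LPS plus BHB (-1.33, SE 0.22, adjusted p = 1.38e-05). Acaa1a, a peroxisomal thiolase, was at 66.8, 66.3 and 69.2 CPM in control, 45.2, 43.2 and 44.4 CPM with LPS, and 75.1, 68.1 and 72.1 CPM with LPS plus BHB (-0.61, SE 0.05, adjusted p = 1.47e-09). Only with LPS did Acaa1a lie outside the range of the other groups. It shares 23.4% of its 31-base words with other transcripts, mainly those of its near copy Acaa1b (673 counts over all libraries against 17439), and 6.57% of its exonic bases with Myd88 on the opposite strand. Myd88 had 2022 to 2203 counts in control, 2707 to 3340 with LPS and 3097 to 3576 with LPS plus BHB, and its part in the Acaa1a counts was not tested.

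Among the regulators, Pparg was the one PPAR gene with a readable level. Pparg (chromosome 6, 115360951 to 115490399, plus strand) stood at 42.6, 41.1 and 44.9 CPM in control, 2.87, 3.01 and 4.53 CPM with LPS, and 1.83, 2.05 and 1.62 CPM with LPS plus BHB. The groups were fully separated, with a fall of 12.4-fold with LPS (log2 fold change -3.63, SE 0.12, adjusted p = 1.59e-16). Ppargc1b, which encodes PGC-1 beta, rose with LPS, from 11.1, 10.4 and 11.5 CPM to 15.6, 17.1 and 13.9 CPM, and was at 11.1, 11.3 and 11.7 CPM with LPS plus BHB (0.49 with LPS, SE 0.10, adjusted p = 0.000119). Ppara had 0 or 1 count in each library. Ppargc1a had 1, 2 and 4 counts in control, 0, 0 and 1 with LPS and 0 in all LPS plus BHB libraries, where a count of 0 over the group allows up to 3 counts or 0.0346 CPM (counting error only). Neither can be compared at this depth. Ppard had 14, 13 and 10 counts in control, 4, 128 and 6 with LPS and 7, 4 and 12 with LPS plus BHB, so 1 LPS library, replicate 2, stood far above the rest. The fitted log2 fold change of Ppard with LPS was 2.23 (SE 1.25, adjusted p = 0.139) and without that library -0.96 (adjusted p = 0.210), by edgeR. Without LPS replicate 1 it was 2.79 (adjusted p = 0.0269) and without LPS replicate 3 it was 2.77 (adjusted p = 0.0472). As with Acadvl, 19 of the 20 protein-coding neighbours of Ppard on chromosome 17 had under 1000 counts over all libraries, and the highest, the ribosomal protein gene Rpl10a, had 2012, so its low level cannot be read as low expression.

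**Figure D2:**
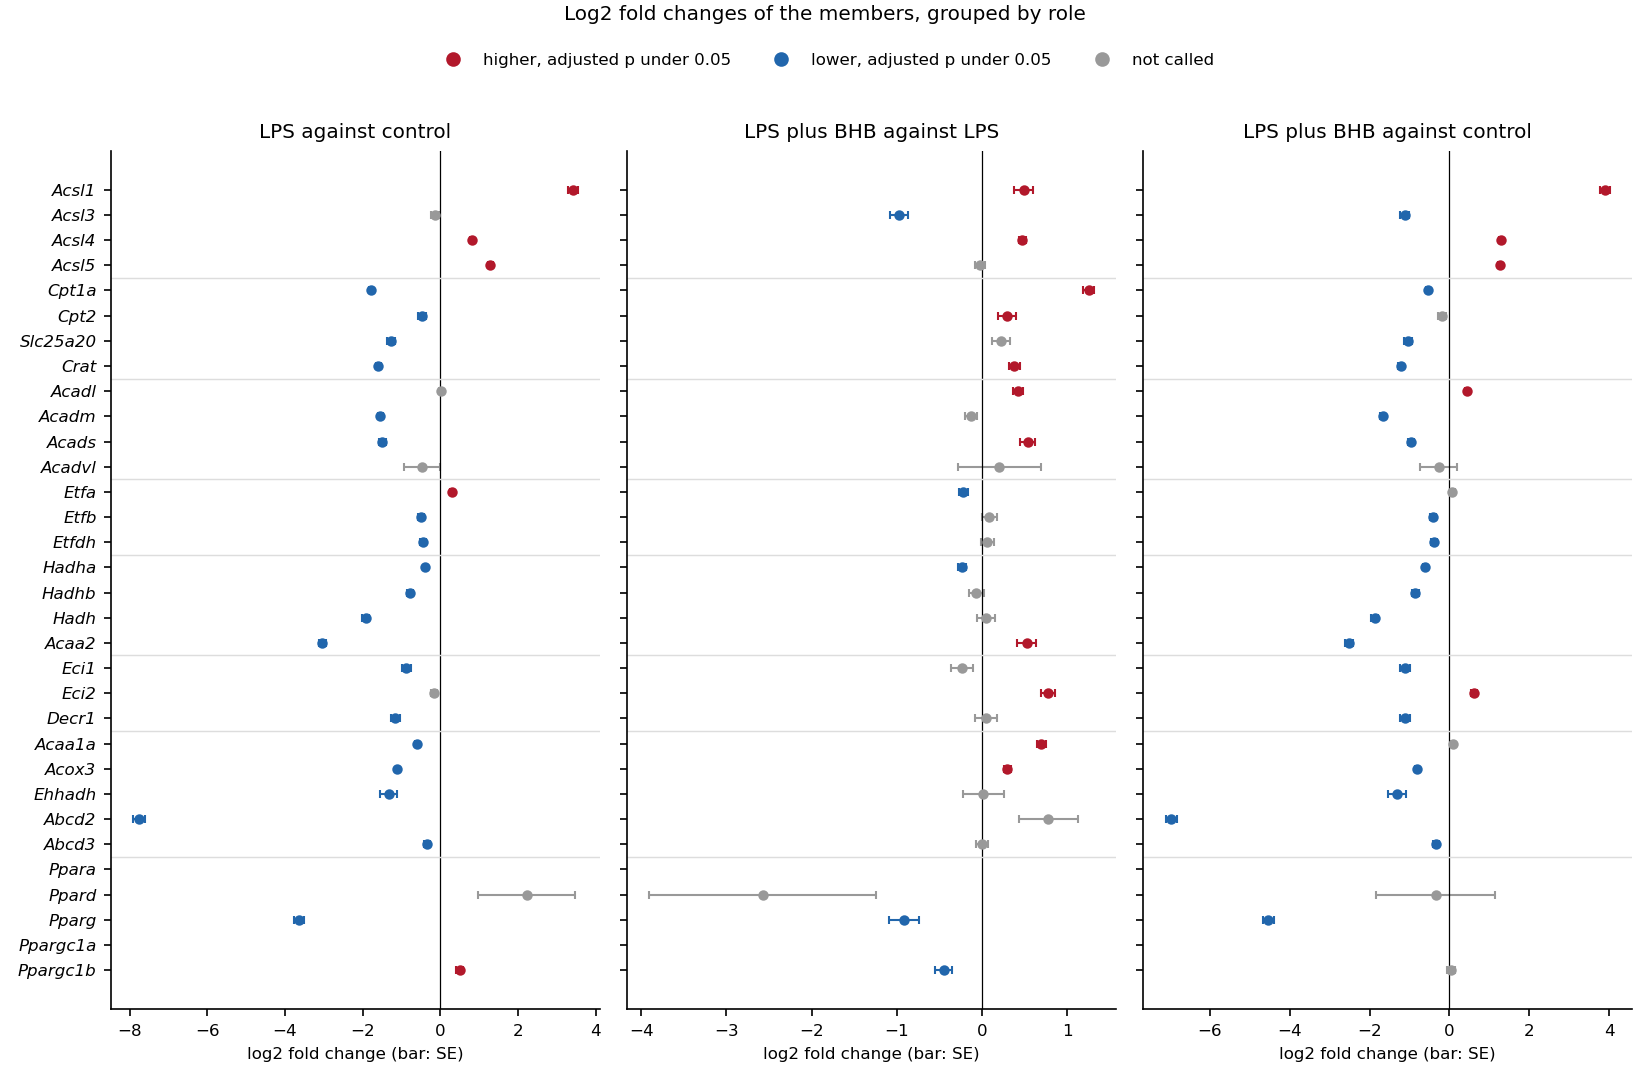
Log2 fold changes of the 30 tested genes with their SE in the 3 comparisons, ordered by role (x axis: log2 fold change, with a different range in each panel; red and blue points passed an adjusted p of 0.05, grey points did not). Of the genes called, 20 lie to the left and 5 to the right with LPS, and on adding BHB 11 lie to the right and 5 to the left. The grey points lie on both sides.

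Adding BHB to LPS moved members both ways, and Pparg was lower still. Of the 30 tested genes 11 (36.7%) were higher and 5 (16.7%) lower than with LPS alone. Of all genes tested 26.4% were called higher and 24.4% lower (50.7% either way). The 16 of 30 members called either way are near that last share. The median log2 fold change was 0.07 for the members and 0.01 for all genes. Cpt1a rose 2.38-fold, from 93.9 ± 10.1 to 223 ± 7.44 CPM (SD, n = 3), a log2 fold change of 1.25 (SE 0.06, edgeR adjusted p = 2.82e-12). It was the only member to change at least 2-fold, beside 7.89% of all genes called higher and 3.36% called lower at that size. Groups did not overlap for 16 of the 30 members, beside 56.7% of all genes. This comparison uses the same LPS libraries as the one with control.

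In the carnitine shuttle Crat rose as well, by 0.38 (log2, SE 0.07, adjusted p = 8.33e-05). Cpt2 rose by 0.29 (SE 0.10, adjusted p = 0.0204), but did not pass once LPS replicate 1 (adjusted p = 0.0516) or LPS replicate 3 (0.0993) was left out, nor without LPS plus BHB replicate 1 (0.120) or by library totals alone (0.0530). Slc25a20 was at 0.22 (SE 0.10, adjusted p = 0.0829), and passed only without LPS plus BHB replicate 2 (adjusted p = 0.0294). Summed over the 4 genes, the shuttle stood at 444 to 464 CPM in control, 131 to 158 CPM under LPS, and 283 to 294 CPM once BHB was added. Most of that sum is Cpt1a.

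After Cpt1a the largest rises among members called were in an isomerase gene and a thiolase gene. Eci2 rose by 0.77 (SE 0.08, adjusted p = 7.72e-08), from 20.6 ± 2.48 to 35.2 ± 0.659 CPM (SD, n = 3, by edgeR), and Acaa1a by 0.70 (SE 0.05, adjusted p = 9.18e-10), from 44.3 ± 1.01 to 71.8 ± 3.55 CPM. Both carry the doubts about shared sequence given above. The dehydrogenase genes Acads at 0.53 (SE 0.08, adjusted p = 1.70e-05) and Acadl at 0.43 (SE 0.06, adjusted p = 2.74e-06) rose, as did the thiolase gene Acaa2 at 0.53 (SE 0.11, adjusted p = 0.000459) and the oxidase gene Acox3 at 0.30 (SE 0.04, adjusted p = 1.02e-05). Acadm was not called, at -0.13 (SE 0.07, adjusted p = 0.149), and was called lower by library totals alone (-0.18, adjusted p = 0.0423). Hadha fell by 0.23 (SE 0.04, adjusted p = 0.000186) and Etfa by 0.22 (SE 0.06, adjusted p = 0.00218). The values for Hadh (0.05, SE 0.11), Hadhb (-0.07, SE 0.09), Decr1 (0.05, SE 0.13), Etfb (0.09, SE 0.08) and Etfdh (0.06, SE 0.08) did not pass, nor did Eci1 (-0.24, SE 0.13), Abcd3 (-0.00046, SE 0.07) and Ehhadh (0.02, SE 0.24). Eci1 passed only without LPS plus BHB replicate 1 (-0.35, adjusted p = 0.0439). Abcd2 was at 0.78 (SE 0.35, adjusted p = 0.0689) on 31 counts over the LPS libraries and 53 over those with BHB, and passed only without LPS replicate 3 (1.15, adjusted p = 0.0227).

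The synthetases diverged. Acsl1 rose further, by 0.49 (log2, SE 0.11, adjusted p = 0.00503), and Acsl4 by 0.47 (SE 0.04, adjusted p = 1.00e-08), while Acsl3 fell by 0.97 (SE 0.11, adjusted p = 2.04e-07). Acsl5 was at -0.02 (SE 0.05, adjusted p = 0.742). Among the regulators Pparg fell by 0.91 (SE 0.17, adjusted p = 0.000172), and its libraries had 87, 86 and 128 counts with LPS and 54, 59 and 46 with LPS plus BHB. Ppargc1b fell by 0.45 (SE 0.10, adjusted p = 0.000787). Ppard was at -2.57 (SE 1.33, adjusted p = 0.155), at 0.62 (adjusted p = 0.515) without LPS replicate 2 and at -3.12 (adjusted p = 0.0356) without LPS replicate 1.

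**Figure D3:**
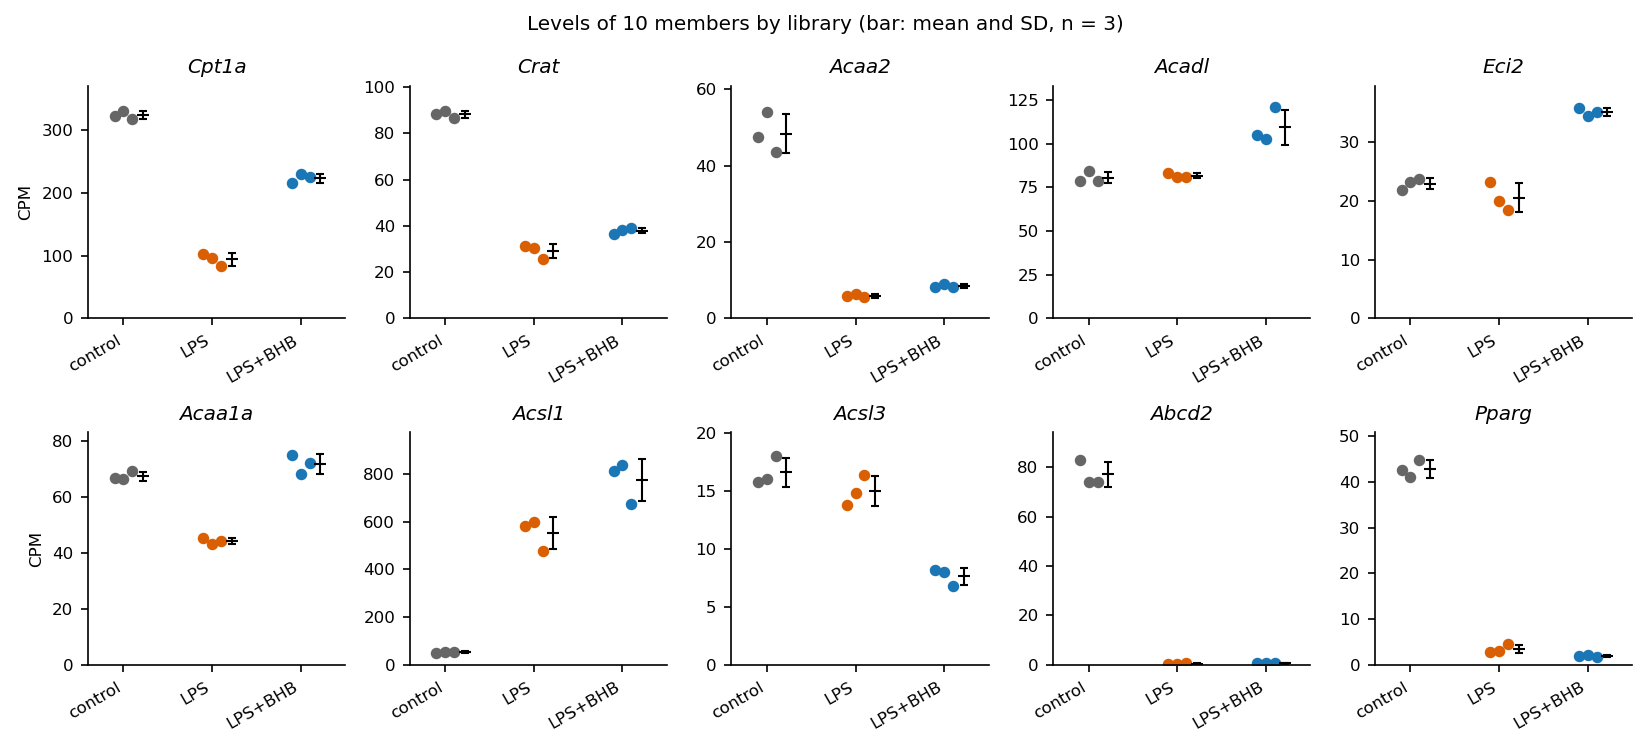
CPM of 10 members in each library (points) with the mean and SD of each group (bars, n = 3), on linear axes from 0. Cpt1a, Crat and Acaa2 with LPS plus BHB lie between control and LPS, Acadl and Eci2 lie above both, and Pparg and Abcd2 stay near 0 in both treated groups.

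The third comparison, LPS plus BHB against control, shares its libraries with both others and places each gene against the untreated level. Here 19 of 30 members were lower and 5 higher, beside 40.4% and 38.0% of all genes (78.4% either way), and 11 were lower and 3 higher by at least 2-fold, beside 23.4% and 18.2%. Groups did not overlap for 24 members, beside 80.2% of all genes. Cpt1a was 1.45-fold below control (log2 fold change -0.54, SE 0.06, adjusted p = 7.62e-08). Acadm at -1.67 (SE 0.07), Hadh at -1.87 (SE 0.10), Acaa2 at -2.51 (SE 0.09), Pparg at -4.54 (SE 0.14) and Abcd2 at -6.97 (SE 0.14) remained far below it, with adjusted p-values from 3.66e-20 to 1.55e-13. Crat (-1.22), Slc25a20 (-1.04), Decr1 (-1.11), Eci1 (-1.11), Ehhadh (-1.31) and Acsl3 (-1.12) were also at least 2-fold lower. Above control were Acsl1 at 3.90 (SE 0.12), Acsl4 at 1.28 (SE 0.04), Acsl5 at 1.27 (SE 0.06), Eci2 at 0.61 (SE 0.08) and Acadl at 0.44 (SE 0.06).

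No call against control was made for Cpt2 (-0.18, SE 0.10, adjusted p = 0.104), Etfa (0.08, SE 0.05, adjusted p = 0.207), Acaa1a (0.09, SE 0.05, adjusted p = 0.120), Ppargc1b (0.05, SE 0.10, adjusted p = 0.689), Acadvl (-0.27, SE 0.47, adjusted p = 0.605) and Ppard (-0.35, SE 1.48, adjusted p = 0.843). This does not show that they were at the control level. Cpt2 was called lower without LPS plus BHB replicate 1 (-0.25, adjusted p = 0.0383) and without control replicates 2 and 3 (-0.35, adjusted p = 0.0288), where the spread comes from the other groups. Acaa1a was called higher without LPS plus BHB replicate 2 (0.14, adjusted p = 0.0342) and with DESeq2 size factors in edgeR (0.12, adjusted p = 0.0499), and Acadvl lower without LPS plus BHB replicate 3 (-1.10, adjusted p = 0.0382). By library totals alone, which moved the median of all genes by -0.326 and the calls over all genes from 5328 higher and 5662 lower to 3922 and 7366, the members called were 4 higher and 23 lower. Etfa (-0.25), Acaa1a (-0.24) and Ppargc1b (-0.28) were then called lower, Cpt2 was too (-0.50), and Acadl lost its call (0.12, adjusted p = 0.0672).

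**Figure D4:**
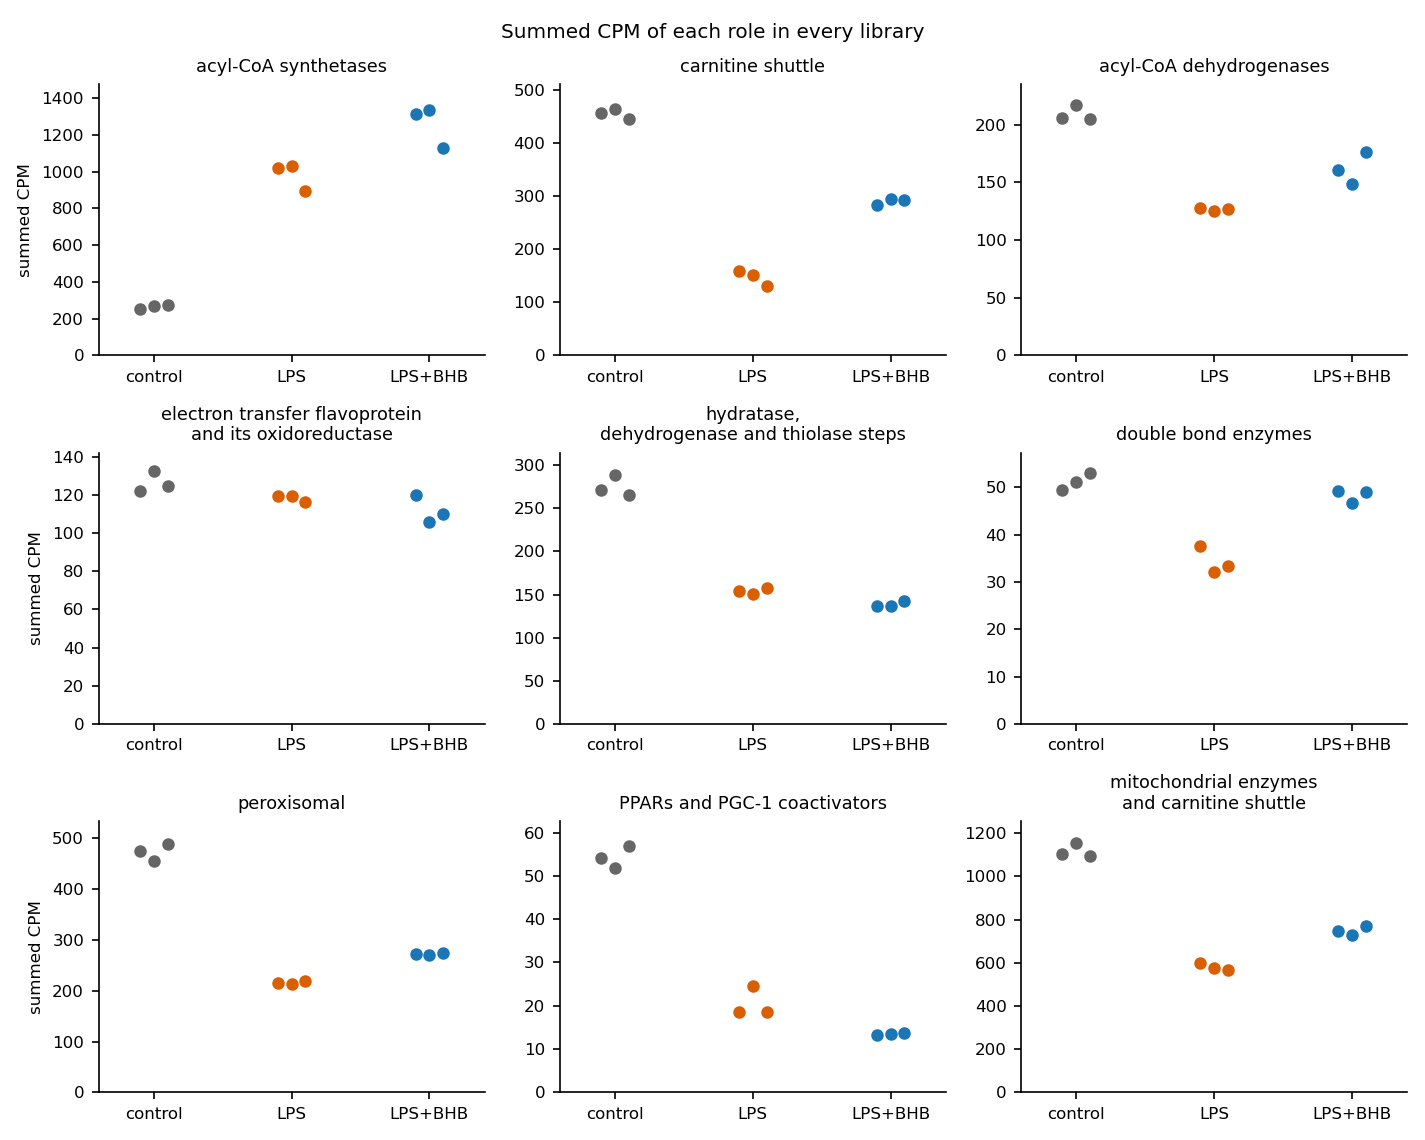
Summed CPM of the members of each role in the 9 libraries (points), on linear axes from 0, with the 5 mitochondrial roles added in the last panel. The mitochondrial sum is 1092 to 1154 CPM in control, 565 to 597 CPM under LPS, and 731 to 771 CPM once BHB was added, and the synthetase sum moves the opposite way with LPS.

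Summed by role, the levels had these ranges. The 18 mitochondrial and shuttle genes together had 1092 to 1154 CPM in control, 565 to 597 CPM under LPS, and 731 to 771 CPM once BHB was added, and the peroxisomal genes had 456 to 489, 213 to 220 and 269 to 275 CPM. The synthetases had 254 to 273, 895 to 1030 and 1129 to 1336 CPM. The hydration, dehydrogenation and thiolysis genes (266 to 289, 150 to 157 and 136 to 143 CPM) and the PPAR and PGC-1 genes (51.9 to 56.8, 18.6 to 24.6 and 13.2 to 13.8 CPM) were lowest with LPS plus BHB. The electron transfer flavoprotein genes had 122 to 133, 116 to 119 and 106 to 120 CPM, and the treated groups overlapped. Cpt1a alone went from 93.9 to 223 CPM in the mean on adding BHB, while the sum of the 18 genes went from 580.03 to 750.07 CPM. Such sums are led by the most abundant genes and were not tested.

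Per kilobase of exon, which allows genes to be set side by side, Cpt1a led the control macrophages with 42.4 CPM per kb, followed by Acadl (40.2), Etfb (35.8), Acaa2 (31.9) and Etfa (29.4). With LPS the order was led by Acsl1 (52.8 CPM per kb), Acsl5 (48.9), Acadl (40.7), Etfa (36.1) and Acsl4 (32.3), and Cpt1a was at 12.3. With LPS plus BHB Acsl1 (74.0 CPM per kb), Acadl (54.7), Acsl5 (48.1) and Acsl4 (44.9) led, ahead of Etfa (30.97) and Cpt1a (29.2). Neighbouring genes in these orders are close, and the lengths are approximate, since the counting annotation is not known here. The places of Etfa and Etfb are uncertain, as 10.9% and 49.9% of their 31-base words occur in other transcripts.

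Other genes of the pathway were read from lists of related genes, beside 41.4% of all tested genes called lower and 38.4% called higher with LPS. The list headed other mitochondrial beta-oxidation enzymes, below the mitochondrial list, is broader than that heading. It also holds propionate genes (Pcca, Pccb, Mcee, Mut), amino acid genes (Ivd, Acad8, Acadsb) and thioesterase genes (Acot2, Acot9, Acot13). Mlycd and Acaa1b, the near copy of peroxisomal Acaa1a, are in it too. In LPS against control, 17 of its 20 tested genes fell and 2 rose, with a median log2 fold change of -0.98. Echs1, the short-chain enoyl-CoA hydratase, went from 52.1 to 16.8 CPM (-1.63, SE 0.07) and Ivd, an acyl-CoA dehydrogenase of leucine breakdown, from 42.9 to 13.2 CPM (-1.70, SE 0.08). Of 25 further peroxisomal genes and peroxins 19 fell and 4 rose, with a median of -0.74. Phyh, which starts the breakdown of phytanic acid, went from 54.8 to 16.1 CPM (-1.76, SE 0.07). In the list of carnitine and fatty acid uptake genes 7 of 13 fell and 3 rose. Crot, the peroxisomal carnitine octanoyltransferase, was at -2.08 (SE 0.10) and Acbd3 at 2.17 (SE 0.04). That list too is broader than its heading, since Acbd3 is named for an acyl-CoA binding domain, not for uptake. Its genes Fabp4 and Cd36, and Acot2 of the mitochondrial list, are also in the list of PPAR target genes. Each was called lower with LPS and counts in both of its lists.

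Of the PPAR partners, coregulators and energy sensors 13 of 26 were lower with LPS and 10 higher, near the 41.4% and 38.4% of all genes. That list also holds the acetyl-CoA carboxylase genes Acaca and Acacb. Rxra, the partner receptor of PPARs, went from 136 to 30.96 CPM (-2.14, SE 0.06). Of 14 tested PPAR target genes outside the members 11 fell and 3 rose, with a median of -0.87. Plin2, a lipid droplet coat protein, went from 1542 to 477 CPM (-1.69, SE 0.06) and Ucp2, a mitochondrial carrier, from 1218 to 328 CPM (-1.89, SE 0.06).

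With BHB added, 26.4% of all tested genes were called higher and 24.4% lower, and these lists of few genes are given beside that. The mitochondrial list had 3 genes higher, among them Acaa1b, and 7 lower of 20. Lower were Ivd at -0.66 (SE 0.09) and the acyl-CoA thioesterase Acot2 at -0.84 (SE 0.15). Peroxisomal genes and peroxins had 9 higher and 5 lower of 25, with the matrix import genes Pex5 at 0.48 (SE 0.06) and Pex6 at 0.53 (SE 0.06). Carnitine and uptake genes had 5 higher and 3 lower of 13. Slc27a1, a fatty acid transport protein, went from 123 to 267 CPM (1.12, SE 0.05) beside 251 CPM in control, and Fabp5, a fatty acid binding protein, from 203 to 72.8 CPM (-1.48, SE 0.05) beside 355 CPM in control. The list of PPAR partners, coregulators and energy sensors had 10 higher and 7 lower of 26. Nrip1, a corepressor of nuclear receptors, was at 1.13 (SE 0.07). The PPAR target list had 5 higher and 4 lower of 14. Hilpda, a lipid droplet protein also known as a hypoxia target, went from 40.9 to 110 CPM (1.42, SE 0.07) beside 6.86 CPM in control, and Ucp2 from 328 to 640 CPM (0.96, SE 0.06). The largest change in that list was a fall, of Mgll from 136 to 26.0 CPM (-2.38, SE 0.16) beside 68.8 CPM in control.

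**Figure D5:**
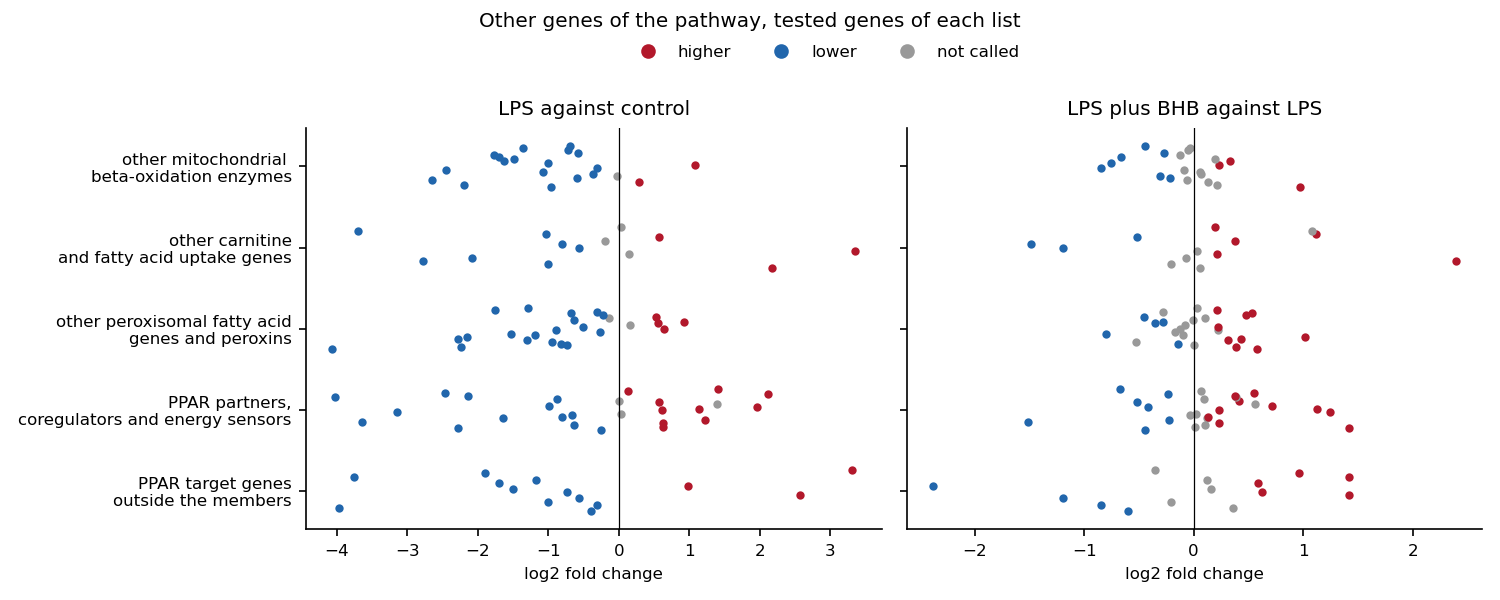
Log2 fold changes of the tested genes of 5 further lists (points) in LPS against control and in LPS plus BHB against LPS (red and blue passed an adjusted p of 0.05, grey did not). Most genes of the mitochondrial and peroxisomal lists lie left of 0 with LPS (17 of 20 and 19 of 25 called lower). The mitochondrial list is broader than beta-oxidation. On adding BHB each list has genes on both sides.

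Against control, 40.4% of all tested genes were called lower and 38.0% higher with LPS plus BHB. The mitochondrial list had 17 of 20 genes lower and 2 higher, with Ivd at -2.36 (SE 0.09) and the thioesterase Acot9 at 1.31 (SE 0.06). Peroxisomal genes and peroxins were lower in 18 and higher in 3 of 25 cases, with Hsd17b4, the peroxisomal bifunctional enzyme of the branched-chain route, at -1.29 (SE 0.06). Carnitine and uptake genes were lower in 5 and higher in 4 of 13 cases, with Fabp5 at -2.29 (SE 0.05) and Acbd3 at 2.24 (SE 0.04). PPAR partners, coregulators and energy sensors were lower in 13 and higher in 11 of 26 cases, with Rxra at -1.76 (SE 0.06). PPAR targets were lower in 11 and higher in 2 of 14 cases, with Fabp4 at -1.75 (SE 0.08) and Hilpda at 3.995 (SE 0.09).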

How the data were processed

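RNA-seq was made from 9 libraries in 3 groups of 3. The authors deposited raw counts, 1 row for each gene symbol. Reads were aligned with HISAT2 to mm10, per the submitters' processing notes, while versions, counting tool, annotation and use of strand are not known here. Library totals ran from 29633411 to 32798920 counts, which sets the precision of low genes, and intervals cover counting error only.

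Genes passing filterByExpr (minimum count 10) in 3 groups, 14026 of 46095 symbols with 99.956% of the counts, were tested with TMM scaling and edgeR 4.0.16 quasi-likelihood tests in R 4.3.3, with all 9 libraries in 1 fit (limma 3.58.1 is a dependency). The two-sided p-values were adjusted by Benjamini-Hochberg over all tested genes (threshold 0.05), and each SE was taken as the size of the log2 change over the root of its F statistic. Alternatives were DESeq2 1.42.0 and its size factors, library totals alone, no filter, a replicate block, only the 6 libraries compared, and leaving libraries out. Replicates differed by more than sampling noise (chi-square per degree of freedom 3.07 to 10.5).

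The members and gene lists were chosen with earlier results of these data known. Values in every library are given for members called with at least a 2-fold change and for the 5 PPAR and PGC-1 genes, and from each further list the 2 genes with the smallest p in each comparison are named, except that some are not reported here. Giving Acadl, Hadha, Eci2 and Acaa1a by library, and naming Mgll as well, was chosen after their values were seen. Of the further lists, Mmut was matched under its older symbol Mut. Positions, exon overlaps, shared 31-base words and neighbours come from GENCODE M21 (GRCm38, which mm10 names), and promoters from RefSeq on GRCm38.p6. A gene was called uncertain where over 10% of its words were shared.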

Additional observations from a re-analysis of the deposited data

How the results depend on the processing

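Every count of called genes and of called members kept its size within 1.5 times under all alternatives run. Over them the members called ranged from 4 to 6 higher and 20 to 23 lower in LPS against control, 10 to 12 and 5 to 6 in LPS plus BHB against LPS, and 4 to 6 and 19 to 23 in LPS plus BHB against control. The 23 members lower in each comparison with control came with library totals alone. All genes called lower then numbered 7084 and 7366, in place of 5801 and 5662. Of the members called, 24 of 25, 15 of 16 and 23 of 24 were called in every setting, the exceptions being Etfa, Cpt2 and Acadl. For all genes called this was not counted, so it does not set the members apart. Library totals alone moved the median of all genes by -0.274, -0.051 and -0.326 (log2), and in LPS plus BHB against LPS gave 3297 genes higher and 3987 lower in place of 3697 and 3418. Under that scaling the log2 fold change reversed for Acadl in LPS against control (-0.257) and, on adding BHB to LPS, for Hadh (-0.0025), Decr1 (-0.0044) and Ehhadh (-0.034). It also reversed for Etfa (-0.249), Acaa1a (-0.235) and Ppargc1b (-0.280) in LPS plus BHB against control.

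Leaving out 1 library changed the sign of values near 0 or of low counts. In LPS against control Acadl ranged from -0.0011 to 0.051 and Ppard from -0.960 to 2.79. In LPS plus BHB against LPS the ranges were -0.063 to 0.041 for Abcd3, -0.633 to 0.496 for Acadvl, -0.077 to 0.044 for Acsl5, -0.082 to 0.136 for Decr1, -0.184 to 0.120 for Ehhadh, -0.038 to 0.143 for Hadh, -0.159 to 0.027 for Hadhb and -3.12 to 0.623 for Ppard. In LPS plus BHB against control Acadvl ranged from -1.10 to 0.156. The causes were not tested. DESeq2 gave no adjusted p for Ppard.

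With a replicate block the genes called were 11136, 7010 and 10908, the members called were as many as without it, and Abcd3 was at 0.00083 in LPS plus BHB against LPS. Deviations of libraries with the same number correlated at -0.0166 to 0.0392. In LPS plus BHB against LPS each library correlated best with its own number (0.0327, 0.0138 and 0.0392). In the comparisons with control this held only for number 3 in LPS against control (0.0230). Whether libraries of the same number share a culture or animal is not known here. Depth limits Ppara, Ppargc1a, Ppard, Acadvl and, under LPS, Abcd2.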
